A study of Rattus norvegicus with 12 samples.

Results

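The smooth muscle contractile genes Acta2, Actg2, Tagln, Cnn1, Myh11, Mylk and Lmod1 were followed in rat bone RNA on 12 Affymetrix rat arrays. Members were taken by symbol: each probe set whose platform annotation gives 1 of the 7 symbols alone was used, and the value of a gene was the mean of its probe sets. All 7 genes were measured, of 14217 in all, through 9 of the 31042 probe sets tested, since Myh11 and Mylk have 2 probe sets each. No filter on low values was used, so every member entered every test.

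The study asked how ovariectomy (OVX) and blueberry (BB) diets change gene expression in the bone of female rats. There were 4 groups with 3 arrays each, and an array measured equal amounts of RNA pooled from 2 to 3 rats. The sham group was sham-operated and fed the casein control diet. The OVX group was ovariectomized and fed that same diet. The LTBB OVX group was ovariectomized and received 10% BB powder from postnatal day (PND) 20 until sacrifice. The STBB OVX group was ovariectomized and received it from PND 20 to PND 34. All rats were female, surgery took place on PND 60, and bone was collected on PND 81, 3 weeks later. The labels name the femur as the tissue, while the methods name the right tibia. No group combined a BB diet with sham surgery, so a diet could be compared only among ovariectomized rats. Since each array is a pool, the spread between arrays is that between pools and not between single rats.

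Smooth muscle shortens when myosin filaments pull on actin filaments, and the signal to do so is the phosphorylation of the myosin light chain by a kinase that calcium and calmodulin switch on. The heavy chain, the actins and several actin-binding proteins exist in forms typical of smooth muscle, and in bone such cells lie in the walls of arteries, while pericytes around small vessels and some stromal cells carry part of the same gene set. Many of these genes are switched on together by serum response factor and its partner myocardin, which act at CArG boxes in the DNA.

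A pair of promoters is shown because they belong to the actin that fell most and to the gene of the set that rose. RefSeq promoter sequences, on build GRCr8 and spanning 250 bases before to 50 after the start of the gene, were matched for 4 of the 7 members: Acta2, Actg2, Cnn1 and Mylk. Capitals mark CArG boxes, with 1 mismatch allowed in the core, and the MCAT element CATTCC or its reverse complement GGAATG. Both promoters lie on the minus strand, at chr1:241172454-241172753 for Acta2 and chr11:79498525-79498824 for Mylk, and are written 5′ to 3′.
Acta2: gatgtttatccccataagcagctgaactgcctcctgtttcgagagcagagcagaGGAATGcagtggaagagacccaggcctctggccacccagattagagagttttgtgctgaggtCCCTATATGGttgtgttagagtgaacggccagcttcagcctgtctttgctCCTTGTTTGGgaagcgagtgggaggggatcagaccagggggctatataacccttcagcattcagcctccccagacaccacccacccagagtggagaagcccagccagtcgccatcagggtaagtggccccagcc
Mylk: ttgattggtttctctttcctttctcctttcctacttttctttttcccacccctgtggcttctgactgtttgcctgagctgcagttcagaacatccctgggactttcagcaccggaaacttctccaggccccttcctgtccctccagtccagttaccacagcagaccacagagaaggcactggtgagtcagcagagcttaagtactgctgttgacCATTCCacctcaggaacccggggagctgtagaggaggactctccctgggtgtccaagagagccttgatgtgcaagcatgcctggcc
In the Acta2 promoter the boxes CCCTATATGG and CCTTGTTTGG start at positions -134 and -84 from the start of the gene, and an MCAT element starts at -196. The Mylk promoter holds an MCAT element at -36 and no CArG box. Over all 33469 promoters of the table, 9.42% held a CArG box with the mismatch allowed, 1.64% an exact one, 14.2% an MCAT element and 8.8% the letters TATAAA. Among the 4 matched members, 1 held a box with the mismatch, 0 an exact box, 2 an MCAT element and 0 TATAAA. CArG boxes and MCAT elements were searched on both strands and TATAAA on that of the gene, and the marked motifs do not overlap. A match is a description of letters and not a site shown to be used.

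Values are on a log2 scale and the authors centred each probe set, so that its median over the 12 arrays is 0. A value therefore says how far a pool lies above or below the middle pool of the same probe set, and levels of different genes cannot be compared. Whether a member was strongly or weakly expressed in bone cannot be read from them either.

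The sham arrays stood apart from the other 9. Between OVX and sham 58.9% of all genes passed the test at an adjusted p of 0.05, and the SD over all probe sets was 0.781 to 0.824 on sham arrays but 0.136 to 0.194 on the rest. The median used for centring lies mostly among those 9 arrays. Any gap between sham and the rest therefore widens the sham spread, and the SDs do not measure the quality of an array. In the OVX pools all 16 markers of skeletal muscle fibres measured were lower than in sham (median difference -6.2 in log2), as were 7 of 7 erythroid and 4 of 4 neutrophil markers. In the same pools 9 of 9 osteoblast and osteocyte markers and 3 of 3 osteoclast markers were higher. Every comparison with sham below rests on those 3 arrays.

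Of the 7 smooth muscle genes, 4 were lower in OVX than in sham, 1 was higher and 2 did not pass the test. Acta2 fell most, by 2.02-fold, and Lmod1, Tagln and Myh11 fell by 1.26-fold to 1.45-fold, while Mylk rose 1.26-fold. The 5 of 7 that passed stand beside 58.9% of all genes, the 4 that fell beside 28.6% that fell and the 1 that rose beside 30.3% that rose. The values of 5 members did not overlap between the sham and OVX pools, and neither did those of 61.2% of all genes. The median log2 difference of the 7 genes was -0.33, against 0.0047 over all genes, and their median absolute difference was 0.33, against 0.31. In bulk RNA, fewer cells of a type and less RNA per cell cannot be told apart.

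**Figure D1:**
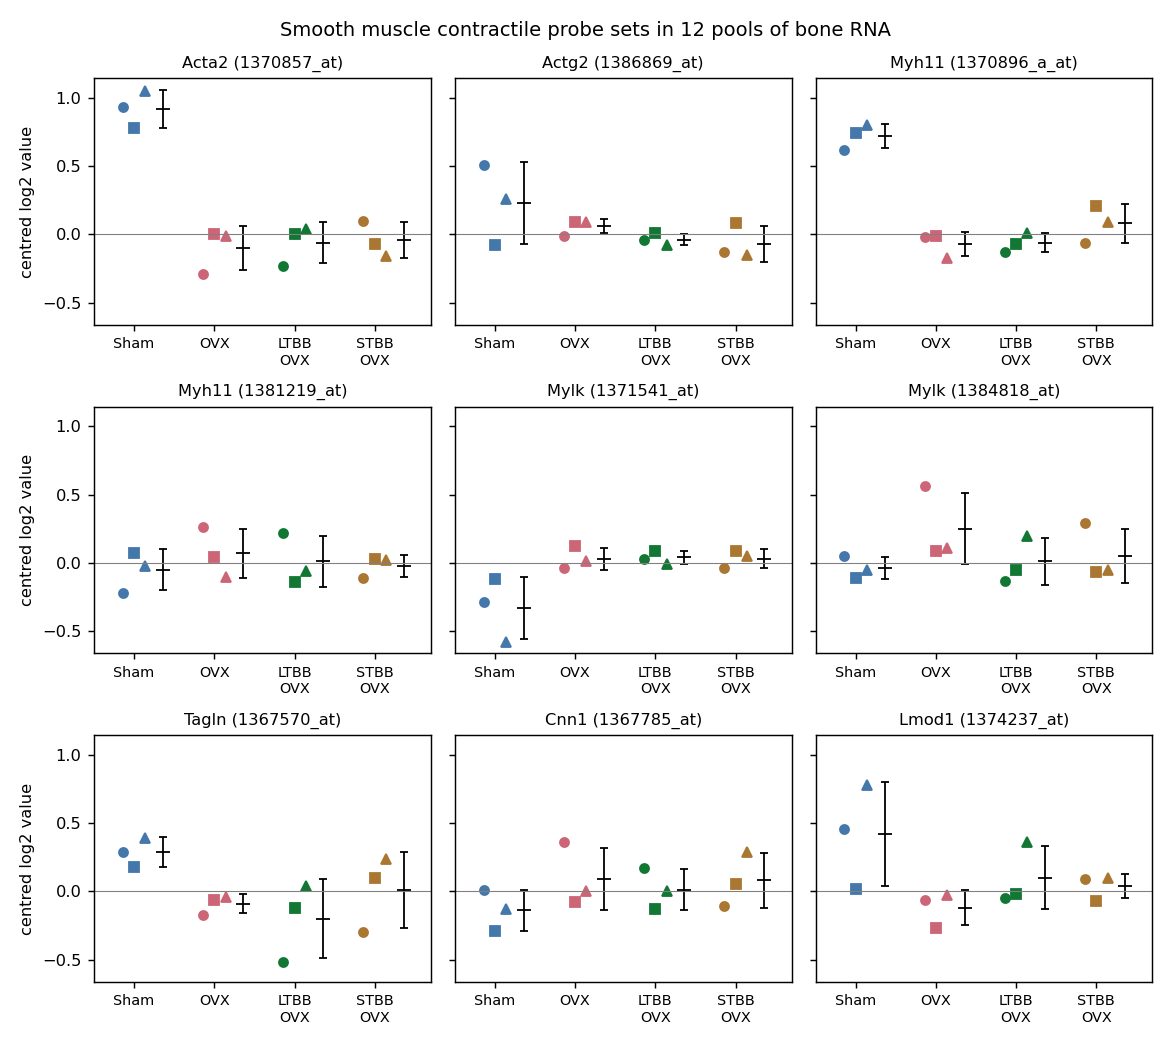
Centred log2 value (vertical axis) of each of the 9 probe sets in the 12 pools, by group, with circles, squares and triangles for pools 1, 2 and 3 and a bar for the mean and SD of 3 pools. The sham pools of Acta2 lie between 0.78 and 1.05 and those of 1 Myh11 probe set between 0.62 and 0.80, above all other pools, while the sham pools of Mylk probe set 1371541_at lie below all others.

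Acta2 encodes smooth muscle alpha-actin, the thin filament actin of vessel walls, pericytes and myofibroblasts. Its probe set 1370857_at read 0.93, 0.78 and 1.05 in the sham pools and -0.29, 0.00 and -0.01 in the OVX pools. It read -0.23, 0.00 and 0.04 in LTBB OVX and 0.10, -0.07 and -0.16 in STBB OVX. The sham pools were thus all higher than any of the 9 pools of ovariectomized rats, which covered one common range whatever the diet. Acta2 fell by 1.02 on the log2 scale in OVX against sham (SE 0.11, 95% interval -1.25 to -0.78, limma adjusted p = 3.21e-06). LTBB OVX differed from sham by -0.98 (SE 0.11, limma adjusted p = 4.39e-06) and STBB OVX by -0.96 (SE 0.11, limma adjusted p = 5.4e-06). The Acta2 change between OVX and sham was larger in size than that of 83.8% of all genes.

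A further 5 probe sets, 1370856_at, 1374352_at, 1374353_x_at, 1385797_at and 1381861_x_at, carry the symbols of both Acta2 and Actc1, the cardiac alpha-actin that skeletal muscle can also use. They were not counted as members, because their signal cannot be assigned to either gene. Of the 5, 4 fell more than the Acta2 probe set did, with OVX against sham differences of -3.89 (SE 0.28) for 1370856_at, -2.49 (SE 0.19) for 1374352_at, -2.45 (SE 0.12) for 1374353_x_at and -2.05 (SE 0.10) for 1385797_at. The sham pools read 3.06, 3.27 and 3.43 for 1370856_at, while the OVX pools read -0.71, -0.58 and -0.63. Probe set 1381861_x_at read 0.02 to 0.09 in the sham pools and -0.06 to 0.00 in the OVX pools, a difference of -0.08 that did not pass the test (limma adjusted p = 0.483). A fall of Acta2 taken over all 6 probe sets would therefore have come out larger than from the probe set that names it alone.

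**Figure D2:**
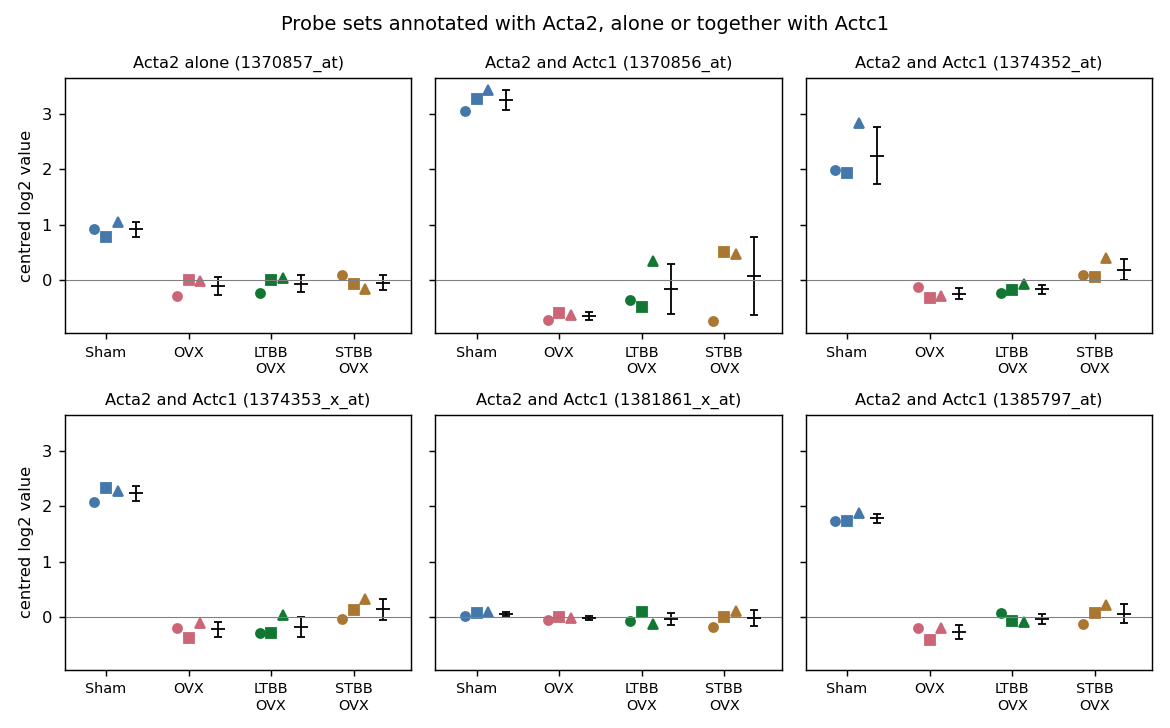
Centred log2 value (vertical axis) in the 12 pools for the probe set annotated with Acta2 alone and for the 5 annotated with Acta2 and Actc1 together, with the mean and SD of 3 pools as bars. The sham pools of 1370856_at lie between 3.06 and 3.43, against 0.78 to 1.05 for the Acta2 probe set, and those of 1381861_x_at lie between 0.02 and 0.09.

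Actg2 encodes smooth muscle gamma-actin, the actin of the gut and other visceral muscle. Its pools were 0.51, -0.08 and 0.26 in sham, -0.01, 0.09 and 0.09 in OVX, -0.04, 0.01 and -0.08 in LTBB OVX and -0.13, 0.08 and -0.15 in STBB OVX. Sham pools 1 and 3 lay above all others and sham pool 2 among them, so the groups overlapped. The OVX difference of -0.17 (SE 0.12, 95% interval -0.43 to 0.09) did not pass the test (limma adjusted p = 0.237), nor did the LTBB OVX difference of -0.27 (adjusted p = 0.0725). STBB OVX was lower than sham by 0.30 (difference -0.30, SE 0.12, limma adjusted p = 0.049), although the pools overlapped, and this call was lost when the adjustment ran over probe sets in place of genes (adjusted p = 0.0583) and when any pool other than sham pool 2 or STBB OVX pool 2 was left out. It was also lost with the pool number as a replicate block (adjusted p = 0.0698), with only these groups in the fit (adjusted p = 0.122) and with array weights (-0.21, adjusted p = 0.152). Without sham pool 2 the OVX and LTBB OVX differences passed too, at -0.33 (limma adjusted p = 0.0107) and -0.42 (adjusted p = 0.00229).

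Myh11 encodes the smooth muscle myosin heavy chain, the motor of the thick filament, and its 2 probe sets did not move together. Probe set 1370896_a_at read 0.62, 0.74 and 0.80 in the sham pools, against -0.17 to -0.01 for OVX, -0.13 to 0.01 for LTBB OVX and -0.06 to 0.21 for STBB OVX, with no overlap between sham and the rest. Probe set 1381219_at read -0.22, 0.07 and -0.02 in sham and 0.26, 0.04 and -0.10 in OVX, and its groups overlapped throughout. The first fell by 0.79 on the log2 scale in OVX against sham (SE 0.09, limma adjusted p = 4.41e-06), a 1.73-fold change, while the second differed by 0.12 (SE 0.12, adjusted p = 0.433). Taken within each array, the first minus the second was 0.77 ± 0.09 (SD, n = 3) in sham and -0.13 ± 0.13 (SD, n = 3) in OVX. This shift of -0.91 had p = 0.10 in an exact two-sided permutation test, the lowest that 20 ways to split 3 pools against 3 allow.

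Averaged over both probe sets, Myh11 differed from sham by -0.33 in OVX (SE 0.088, limma adjusted p = 0.00549), -0.36 in LTBB OVX (SE 0.088, adjusted p = 0.00351) and -0.30 in STBB OVX (SE 0.088, adjusted p = 0.0097). If a single probe set per gene had been taken by the type and order of its ID, 1381219_at would have stood for Myh11 and the sign would have turned, to 0.12 in OVX against sham. The size of the Myh11 change therefore depends on the probe set, and the annotation does not tell which transcripts the pair detects.

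Mylk encodes the myosin light chain kinase, the enzyme that starts contraction. Probe set 1371541_at read -0.29, -0.12 and -0.58 in the sham pools and -0.04, 0.12 and 0.01 in the OVX pools. Probe set 1384818_at read 0.05, -0.11 and -0.05 in sham and 0.56, 0.09 and 0.11 in OVX. For each of them all OVX pools lay above all sham pools, with the pools of a group spread widely: sham pool 3 was lowest on 1371541_at and OVX pool 1 highest on 1384818_at.

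The gene mean of Mylk was higher in OVX than in sham by 0.33 (SE 0.08, 95% interval 0.16 to 0.50, limma adjusted p = 0.00306). By probe set the OVX difference was 0.36 for 1371541_at (SE 0.10, adjusted p = 0.00961) and 0.29 for 1384818_at (SE 0.14, adjusted p = 0.0941), so that the first passed and the second did not. The gene was also higher in the BB groups than in sham, by 0.21 for LTBB OVX (adjusted p = 0.0381) and 0.23 for STBB OVX (adjusted p = 0.0243). There 1371541_at passed, with 0.37 for each, while 1384818_at differed from sham by 0.049 and 0.093 and did not pass. The LTBB OVX call was lost without sham pool 3 (0.14, adjusted p = 0.132), LTBB OVX pool 2 (0.21, adjusted p = 0.0803) or pool 3 (0.17, adjusted p = 0.13), and the STBB OVX call without sham pool 3 (0.16, adjusted p = 0.0871) or STBB OVX pool 1 (0.19, adjusted p = 0.0939). With array weights these differences were 0.16 (adjusted p = 0.0973) and 0.18 (adjusted p = 0.063), and with only the groups compared in the fit 0.21 (adjusted p = 0.0732) and 0.23 (adjusted p = 0.0525), none of which passed.

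Tagln encodes transgelin, also called SM22-alpha, a small actin-binding protein widely used as an early smooth muscle marker. Its pools read 0.29, 0.18 and 0.39 in sham, -0.17, -0.06 and -0.04 in OVX, -0.52, -0.12 and 0.04 in LTBB OVX and -0.30, 0.10 and 0.24 in STBB OVX. Sham and OVX did not overlap, whereas the STBB OVX pools reached into the sham range. Tagln fell by 0.38 on the log2 scale in OVX (SE 0.15, limma adjusted p = 0.0432) and by 0.49 in LTBB OVX (SE 0.15, adjusted p = 0.0123), and the STBB OVX difference of -0.27 did not pass (adjusted p = 0.133), though it did with the pool number as a replicate block (adjusted p = 0.0496). The OVX call was close to the threshold and held in 5 of the 12 fits that each left out 1 pool, with differences from -0.43 to -0.33. It was lost without sham pool 1 or 3, without any of the OVX pools, without pool 2 of LTBB OVX or of STBB OVX, and with array weights (-0.31, adjusted p = 0.13). The LTBB OVX call was lost without LTBB OVX pool 1 (-0.33, adjusted p = 0.062).

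Cnn1 encodes calponin 1, which binds actin and restrains the myosin motor. It read 0.01, -0.29 and -0.13 in sham and 0.36, -0.08 and 0.00 in OVX. LTBB OVX read 0.17, -0.13 and 0.00 and STBB OVX -0.11, 0.05 and 0.29. All groups overlapped, and Cnn1 passed in no comparison. Its OVX difference from sham was 0.23 (SE 0.13, 95% interval -0.06 to 0.52, limma adjusted p = 0.157), an interval that holds small falls as well as a rise of the size seen for Mylk.

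Lmod1 encodes leiomodin 1, which nucleates actin filaments in smooth muscle. It read 0.46, 0.02 and 0.78 in sham and -0.06, -0.27 and -0.03 in OVX. LTBB OVX read -0.05, -0.02 and 0.36 and STBB OVX 0.09, -0.07 and 0.10. Sham pool 2 lay far below sham pools 1 and 3, just above the OVX range and inside that of both BB groups. In OVX, Lmod1 fell by 0.54 on the log2 scale (SE 0.16, limma adjusted p = 0.012), and the call was lost without sham pool 3 (-0.36, adjusted p = 0.053) and with array weights (-0.32, adjusted p = 0.0786). The differences of LTBB OVX and STBB OVX from sham, -0.32 (adjusted p = 0.109) and -0.38 (adjusted p = 0.0609), did not pass. With the pool number as a replicate block both did (adjusted p = 0.0291 and 0.0127). Each passed without sham pool 2, at -0.52 (adjusted p = 0.00665) and -0.58 (adjusted p = 0.00339), and without LTBB OVX pool 3, at -0.46 (adjusted p = 0.0383) and -0.38 (adjusted p = 0.0469).

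**Figure D3:**
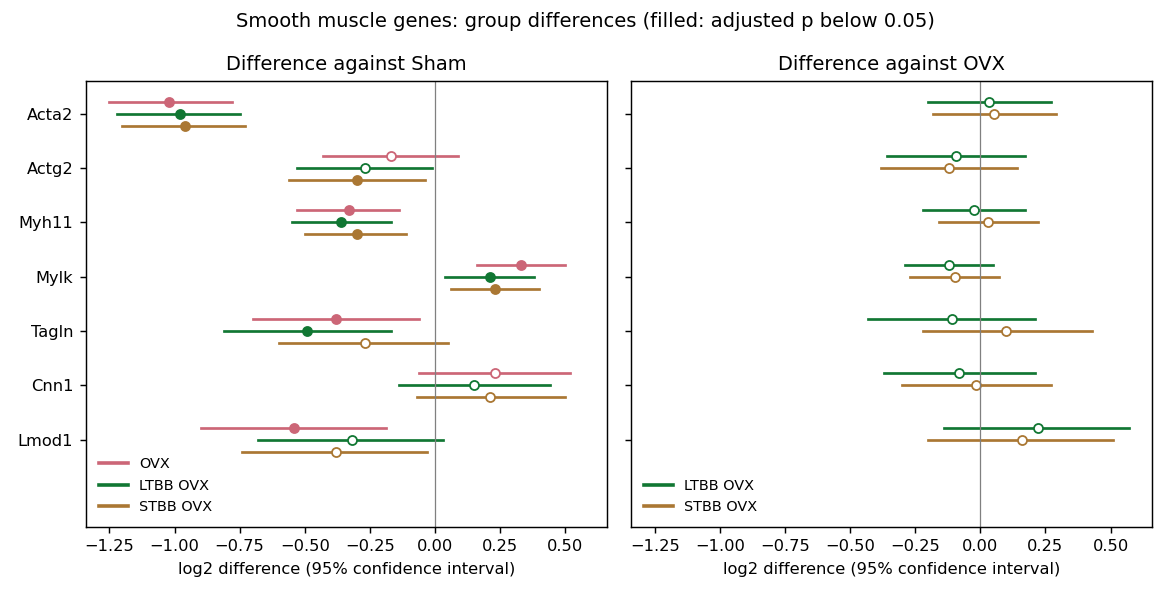
Log2 differences (horizontal axes) of the 7 genes with 95% confidence intervals from limma, against sham on the left and against OVX on the right, with filled points for an adjusted p below 0.05. Acta2 lies near -1 in all comparisons with sham, Mylk lies above 0 in all of them, and no interval against OVX excludes 0.

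The comparisons of the BB groups with sham share the sham arrays with each other and with the OVX comparison, so their values are given side by side and not as separate evidence. In LTBB OVX, 3 members were lower than in sham and 1 was higher, 4 of 7 beside 58.3% of all genes. In STBB OVX, again 3 were lower and 1 higher, 4 of 7 beside 58.3% of all genes. Acta2, Myh11 and Mylk passed in each of the 3 comparisons. Over the 4 groups together the F-test passed Acta2 (limma adjusted p = 5.4e-06), Myh11 (adjusted p = 0.0104) and Mylk (adjusted p = 0.0184), 3 of 7 genes beside 55.6% of all. It did not pass Tagln (adjusted p = 0.0597), Lmod1 (adjusted p = 0.0645), Actg2 (adjusted p = 0.165) or Cnn1 (adjusted p = 0.427). Among the probe sets, 5 of 9 passed between OVX and sham, beside 49.8% of all probe sets.

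Quantile normalizing the arrays again, which makes the wide sham distributions and the narrow others alike, ended each of these calls: Acta2 then differed by -0.55 between OVX and sham (limma adjusted p = 0.069) and Mylk by 0.43 (adjusted p = 0.0761), and 0 of 7 members passed against sham in any group. Myh11 then stood at -0.16 and Lmod1 at -0.43. The calls thus depend on keeping the scale of the deposited values. Among the related genes named below, Cald1, Tpm4, Ppp1r14a, Rhoa, Rock1, Elk1, Klf4, Hic1, Gucy1a1, Myh10 and Mylk3 also did not pass after that step.

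Among the ovariectomized groups no member passed the test for a difference by diet. For LTBB OVX against OVX limma called 0 of 7 members, 0 with an unadjusted p below 0.05, beside 0.0% of all genes after adjustment and 2.31% before it. For STBB OVX against OVX it called 0 of 7, again 0 unadjusted, beside 0.0% and 2.89%. The 2 BB groups compared with each other gave 0 of 7 and 0 unadjusted, beside 0.0% and 3.4%.

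The median absolute difference of the 7 members from OVX was 0.094 in LTBB OVX and 0.098 in STBB OVX, against 0.056 and 0.053 over all genes. Between OVX and sham it was 0.33. The intervals of single members were not narrow. Acta2 differed from OVX by 0.032 in LTBB OVX (95% interval -0.20 to 0.27) and by 0.054 in STBB OVX (-0.18 to 0.29), so that a return to the sham level, about 1 on this scale, lay outside both. Myh11 differed by -0.024 (-0.22 to 0.17) and 0.029 (-0.16 to 0.22). By probe set this was 0.0085 and 0.15 (-0.05 to 0.34) for 1370896_a_at, but -0.056 and -0.088 for 1381219_at. Mylk differed by -0.12 (-0.29 to 0.05) and -0.098 (-0.27 to 0.07). These values came from 1384818_at, at -0.24 (-0.54 to 0.05) and -0.20 (-0.49 to 0.10), while 1371541_at stood at 0.0048 and 0.0026. Actg2 differed by -0.094 (-0.36 to 0.17) and -0.12 (-0.38 to 0.14), beside -0.17 between OVX and sham. Cnn1 differed by -0.08 (-0.37 to 0.21) and -0.016 (-0.30 to 0.27). The widest intervals were those of Lmod1, 0.22 (-0.14 to 0.57) for the long-term diet and 0.16 (-0.20 to 0.51) for the short-term diet, and of Tagln, -0.11 (-0.43 to 0.21) and 0.10 (-0.22 to 0.43). Differences of the size by which Tagln and Lmod1 fell in OVX therefore lie inside some of these intervals.

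Members were also compared with each other within an array. The difference between a pair of members does not change when a constant is added to that array. Of the 21 pairs, 14 had within-array differences that did not overlap between the sham and OVX pools, beside 69.1% of all pairs of genes, so the count is near that of genes in general. Each of the 14 had p = 0.10 in the exact permutation test, the lowest that 3 pools against 3 allow, so none could pass. Acta2 minus Mylk was 1.11 ± 0.24 (SD, n = 3) in sham and -0.24 ± 0.26 (SD, n = 3) in OVX, the widest shift of all pairs. Against each of the other 5 members the shift of Acta2 was -0.48, for Lmod1, to -1.25, for Cnn1, with no overlap. Tagln, Myh11 and Lmod1 kept overlapping differences among themselves, as did Actg2 with each of them and Cnn1 with Mylk.

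Over the 12 pools the values of Acta2 correlated with those of Myh11 (r = 0.732), Lmod1 (r = 0.731), Tagln (r = 0.684) and Actg2 (r = 0.635), and ran against Mylk (r = -0.797) and Cnn1 (r = -0.618). All these pools share the gap between sham and the rest. After each group's mean was subtracted the same pairs stood at -0.592 with Myh11, 0.49 with Lmod1, 0.25 with Tagln, 0.334 with Actg2, -0.209 with Mylk and -0.64 with Cnn1, so that Myh11 changed sign. The pairs without Acta2 then lay between -0.403 for Actg2 with Myh11 and 0.408 for Tagln with Lmod1.

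By the correlation of the values as they are, the nearest patterns among all genes were Hycc2 (r = 0.992), Lactb2 (r = 0.987) and Gdap2 (r = 0.984) for Acta2, Fndc1 (r = 0.945), P4ha3 (r = 0.921) and Fbln2 (r = 0.901) for Tagln, and Olfml1 (r = 0.965), Psmd6 (r = 0.953) and Atp6v0a4 (r = 0.953) for Myh11, each over 12 pools. For Mylk they were Syp (r = 0.939), Penk (r = 0.938) and Acat2 (r = 0.935), and for Lmod1 Acsm2 (r = 0.903), Bpifb6 (r = 0.895) and Scx (r = 0.894). Actg2 was nearest to Efcab14 (r = 0.899), Sart1 (r = 0.893) and Gys2 (r = 0.893), and Cnn1 to Parp9 (r = 0.893), Adm (r = 0.871) and Pemt (r = 0.864). With the group means subtracted, Wdfy1 (r = 0.983) was nearest to Acta2, Sys1 (r = 0.959) to Myh11, Svop (r = 0.957) to Cnn1, P2rx5 (r = 0.955) to Lmod1, Lyar (r = 0.947) to Mylk, Sncaip (r = 0.946) to Tagln and Anapc13 (r = 0.937) to Actg2. Of the members, Cnn1 alone kept any of its 3 nearest genes, Parp9 and Adm, once the group means were gone. The Cnn1 group means ran only from -0.14 in sham to 0.09 in OVX, so subtracting them changed its values little. All these partners were picked for the highest r among all genes, so a high r follows in part from that choice.

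The relatives of the members in other cells were read beside them, from a list of 16 genes of which 13 were measured. Between OVX and sham 7 of these fell, 1 rose and 5 did not pass, with a median of -0.54. The counts of this list and of the related lists below stand beside 28.6% of all genes that fell and 30.3% that rose. Whether a list differs from those shares was not tested. The 4 widest falls of the list were those of Acta1, Lmod2, Mylk2 and Lmod3, all forms of striated muscle. The log2 difference was -6.16 for Acta1, skeletal alpha-actin (SE 1.0, limma adjusted p = 0.000193), -4.12 for Lmod2 (SE 0.19), -2.43 for Mylk2, the skeletal light chain kinase (SE 0.12), -1.40 for Lmod3 (SE 0.14) and -0.54 for Mylk3, the cardiac kinase (SE 0.10). With 1 probe set per gene Mylk2 stood at -0.61, Lmod3 at -2.66 and Mylk3 at -0.80, and each still passed. The size and order of these falls thus depend on the probe set. Of the non-muscle heavy chains, Myh10 (-0.87, SE 0.12) and Myh14 (-0.89, SE 0.14) fell as well, whereas Myh9 at 0.074 did not pass. Cnn3, the calponin of non-muscle cells, rose by 1.07 (SE 0.083). Actg1 (-0.14), Cnn2 (-0.048), Tagln2 (0.26, adjusted p = 0.0511) and Tagln3 (-0.03) did not pass, though Actg1 did without sham pool 3 (-0.21, adjusted p = 0.0323) and Tagln2 without sham pool 1 (0.38, adjusted p = 0.00341).

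Other filament genes of smooth muscle, 14 measured of 15 listed, had 10 members that fell in OVX, 2 that rose and 2 that did not pass, with a median of -0.71. Those that fell most were Des, the intermediate filament desmin of all muscle types, at -5.06 (SE 0.30), and Nexn, an actin-binding protein of the heart and skeletal muscle as well, at -3.93 (SE 0.28). Cald1, caldesmon, which binds actin in smooth and non-muscle cells, rose by 0.48 (SE 0.071), and Tpm4, a non-muscle tropomyosin, rose by 0.28 (SE 0.092). Tpm4 did not pass without sham pool 3 (0.21, limma adjusted p = 0.0716) or OVX pool 1 (0.24, adjusted p = 0.0694), and Cald1 turned to -0.11 and did not pass when 1 probe set stood for each gene.

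Genes that set the phosphorylation of the light chain, 14 measured of 17 listed, had 7 that fell, 3 that rose and 4 that did not pass, with a median of -0.18. Ppp1r14a, an inhibitor of myosin phosphatase, stood at -0.98 (SE 0.14), and Ppp1cb, a catalytic subunit of that phosphatase, at -0.86 (SE 0.12). Rhoa and its kinase Rock1, which hold the phosphatase down, rose by 0.52 (SE 0.11) and 0.42 (SE 0.14). Rock1 did not pass without sham pool 2 (0.27, limma adjusted p = 0.0962) or OVX pool 1 (0.31, adjusted p = 0.0943).

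Regulators of smooth muscle transcription, 9 measured of 10 listed, had 2 that rose, 2 that fell and 5 that did not pass, with a median of -0.12. Srf, the factor that binds CArG boxes, differed by -0.12 (SE 0.071, limma adjusted p = 0.163) and its partner Myocd by -0.11 (SE 0.089, adjusted p = 0.293), and neither passed. Their values were looked at because of the promoter motif and fall outside the rule by which the other genes were named. Tbx18, a factor of mural cell precursors, rose by 1.44 (SE 0.084), and Klf4, which represses smooth muscle genes, by 0.81 (SE 0.12). Hic1, a transcriptional repressor, stood at -0.34 (SE 0.088) and Elk1, which competes with myocardin for Srf, at -0.30 (SE 0.074), where Elk1 did not pass with 1 probe set per gene (-0.17, adjusted p = 0.111).

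Membrane, calcium and relaxation genes, 13 measured of 15 listed, had 6 that fell, 4 that rose and 3 that did not pass, with a median of -0.18. Hspb6, a small heat shock protein of all muscle types, stood at -5.06 (SE 0.26), and Irag1, through which nitric oxide signalling lowers calcium release, at -1.97 (SE 0.16). Kcnma1, the pore of the large calcium-activated potassium channel, rose by 0.79 (SE 0.071), and Gucy1a1, a subunit of the nitric oxide receptor, by 0.52 (SE 0.096). With 1 probe set per gene the Kcnma1 difference was 0.077 and did not pass (limma adjusted p = 0.763), while that of Gucy1a1 was 1.07 (adjusted p = 2.57e-06). In none of the 3 comparisons between ovariectomized groups did a gene of these 5 lists pass.

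**Figure D4:**
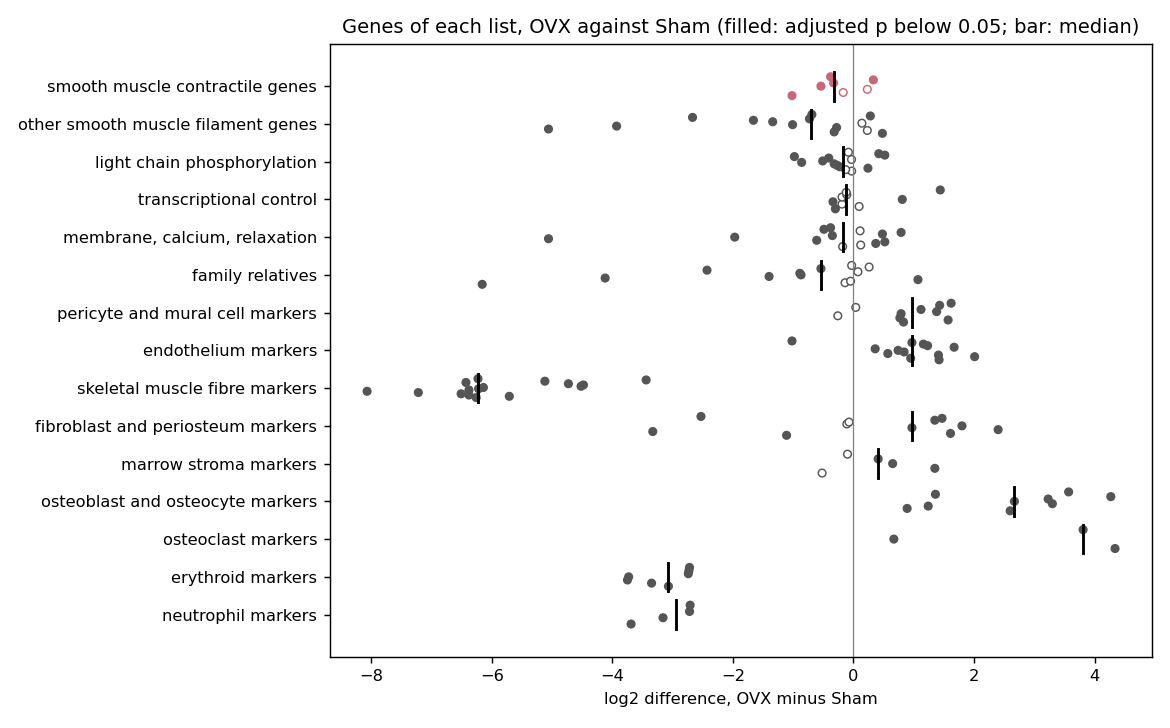
Log2 difference between OVX and sham (horizontal axis) for each measured gene of the smooth muscle set, the related lists and the lists of cell type markers, with filled points for an adjusted p below 0.05 and a bar at the median of each list. The 7 smooth muscle genes lie between -1.02 and 0.33, the 16 skeletal muscle markers between -8.07 and -3.44, and the median of the 10 pericyte and mural cell markers is 0.98.

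Markers of vessel and stromal cells differed between OVX and sham as well, and their part in the values of the members was not tested. Their counts stand beside 28.6% of all genes that were lower in OVX and 30.3% that were higher. Of 10 pericyte and mural cell markers, all measured, 8 were higher in OVX than in sham, 0 were lower and 2, Notch3 and Higd1b, did not pass, with a median of 0.98. Rgs5 rose by 1.62 (SE 0.16) and Cspg4 by 1.57 (SE 0.13). The mean centred value of the list ran from -0.95 to -0.82 in the sham pools and from 0.03 to 0.05 in the OVX pools. Of 13 endothelial markers measured of 15 listed, 12 were higher and 1, Vwf at -1.02 (SE 0.10), was lower, with a mean value of -0.94 to -0.89 in sham and 0.02 to 0.06 in OVX. The fibroblast and periosteum markers, 11 measured of 12 listed, were split: 6 were higher, among them Fap at 2.40 and Pdgfra at 1.80, 3 were lower, Dpt at -3.33, Tnmd at -2.53 and Col14a1 at -1.11, and 2, Postn and Pi16, did not pass. Their mean value was -0.41 to -0.13 in sham and -0.08 to 0.05 in OVX. Of 5 marrow stroma markers measured of 6 listed, 3 were higher and 2 did not pass, with a mean value of -0.60 to -0.12 in sham and -0.06 to 0.20 in OVX.

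Skeletal muscle markers moved in the direction of Acta2, Myh11, Tagln and Lmod1, but so did other lists and 28.6% of all genes. The erythroid mean ran from 2.79 to 3.24 in sham and from -0.32 to 0.13 in OVX. For neutrophil markers it ran from 2.63 to 3.09 and from -0.36 to 0.01. Only the skeletal muscle list was correlated with the members. The mean centred value of its 16 genes ran from 3.28 to 4.28 in the sham pools, from -2.92 to -1.28 for OVX, from -2.99 to 0.25 for LTBB OVX and from -0.01 to 0.64 for STBB OVX. Over the 12 pools this mean correlated with Acta2 at r = 0.864, Myh11 at 0.815, Tagln at 0.741, Lmod1 at 0.72, Actg2 at 0.412, Cnn1 at -0.397 and Mylk at -0.753. With group means subtracted the values were 0.248, 0.326, 0.413, 0.442, -0.0736, 0.0592 and -0.0319 in that order. The part of muscle fibres in the values of the members was not tested.

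In the STBB OVX group the skeletal muscle markers were above the OVX level by a median of 2.8 on the log2 scale. By limma 15 of 16 had an unadjusted p below 0.05, beside 2.89% of all genes, and 0 of 16 passed after adjustment. The STBB OVX pools of the marker mean did not overlap with those of OVX. In STBB OVX, Acta2 differed from OVX by 0.054, Myh11 by 0.029, Tagln by 0.10 and Lmod1 by 0.16, and for each of the 4 genes the pools of both groups overlapped. Myh11 probe set 1370896_a_at differed by 0.15 and 1381219_at by -0.088, with overlap for each. The probe sets annotated with both Acta2 and Actc1 differed by 0.72 for 1370856_at, 0.43 for 1374352_at, 0.36 for 1374353_x_at, 0.32 for 1385797_at and 0.00022 for 1381861_x_at. The first 4 had an unadjusted limma p of 0.00599 to 0.0378, and none passed after adjustment. Of all probe sets, 2.97% had an unadjusted p below 0.05 in this comparison. Pools of both groups did not overlap for 1374352_at, 1374353_x_at and 1385797_at. The share of all probe sets without such overlap was not counted, so no weight can be put on this.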

How the data were processed

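Total RNA of rat bone was measured on 12 arrays, 4 groups of 3 pools. The authors deposited log2 values: the methods name robust multiarray analysis, a floor of 0.01 and per-array and per-gene normalization in GeneSpring, and GCOS and RMA stand in the submitters' processing notes, with versions not given in the sources used here. In the deposited log2 table the median of every row is 0. Levels are lost, so no filter on dim probe sets was possible, and the number of arrays limits the precision.

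Of 31099 probe sets 57 controls were left out. The platform annotation gives 1 symbol for 20826 of the remaining 31042, several for 436 and none for 9780, and 20758 symbols were taken by gene ID from a RefSeq gene table of GRCr8, used for names alone. Genes are means over the probe sets carrying a symbol alone, 14217 in all and 4525 with more than 1 probe set. All 12 arrays were fitted as 4 group means, with 6 contrasts and an F-test, in limma 3.58.1 in R 4.3.3, with Benjamini-Hochberg adjustment over all genes or all probe sets and a threshold of 0.05. Differences are given with moderated standard errors (SE) and 95% intervals. The fit was tested on simulated data. Differences between members within an array were compared by exact two-sided permutation. Correlations are Pearson's r and carry no test.

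The members, the related lists and the marker lists were chosen with earlier results of these data known. Named beside the members were up to 2 genes that rose most and 2 that fell most in each list between OVX and sham, all family relatives, and the genes with the nearest pattern over the pools. Pools of a group were taken as its replicates, so p-values measure the spread between pools. The titles number the pools 1 to 3 in each group, and no source used here says what a number shares. Deviations of same-numbered pools correlated at 0.11 to 0.2323 between sham and LTBB OVX. Between sham and STBB OVX they correlated at 0.1041 to 0.1657. In the other pairs of groups none exceeded 0.1. Of 36 pairs of differently numbered pools, 8 exceeded 0.1, with values from -0.2343 to 0.3813. These correlations therefore do not settle whether pools of 1 number belong together. The main fits held no block, and blocked values stand beside the calls they change as an alternative. Alternatives changed the normalization, the variance model, the arrays in the fit, the probe sets of a gene, the null and the genes tested, used a replicate block and left out each pool. Plots used matplotlib 3.10.9 (Python 3.11.15).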

Additional observations from a re-analysis of the deposited data

How the results depend on the processing

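Between OVX and sham 5 members passed. This became 0 after quantile normalization, 3 with array weights and 1 against a fold of 1.5 in place of no change. It lay between 3 and 6 when each pool was left out, with 3 without sham pool 3 and 6 without sham pool 2. Between LTBB OVX and sham 4 members passed, which became 0 after quantile normalization, 1 against a fold of 1.5 and 3 to 6 with a pool left out. Between STBB OVX and sham 4 passed, which became 0 after quantile normalization, 2 with array weights, 2 with only these groups in the fit, 2 with 1 probe set per gene, 1 against a fold of 1.5 and 2 to 5 with a pool left out (2 without sham pool 3 and 2 without STBB OVX pool 1). In the comparisons among ovariectomized groups 0 members passed under every setting, and with only the 9 arrays of ovariectomized rats, an alternative chosen after seeing the data, 0 passed as well.

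With 1 probe set per gene Myh11 reversed against sham, to 0.12 for OVX, 0.064 for LTBB OVX and 0.033 for STBB OVX, and so did Cald1, to -0.11 for OVX. In the fits that left out a pool, Acta2, Myh11 and Mylk passed between OVX and sham in 12 of 12, Lmod1 in 11, Tagln in 5, Actg2 in 1 and Cnn1 in 0. Over all single values of the members 875 stayed on their side of the threshold, of which 32 that had not passed changed sign, 58 lost the call, 9 gained one and 3 that had passed reversed. One of the 32 was Lmod1 between LTBB OVX and sham, at 0.058 after quantile normalization. Between OVX and sham 8367 of all 14217 genes passed. This became 3010 after quantile normalization, 8514 with array weights, 2874 against a fold of 1.5 and 7654 to 8320 with a pool left out. For LTBB OVX against sham 8290 genes passed. This became 3192 after quantile normalization, 2876 against a fold of 1.5 and 7636 to 8303 with a pool left out. For STBB OVX against sham 8283 passed. This became 3142 after quantile normalization, 8317 with array weights and 7633 with only these groups. It was 7968 with 1 probe set per gene, 2881 against a fold of 1.5 and 7673 to 8280 with a pool left out.

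With the pool number as a replicate block, 5 members passed between OVX and sham, 5 between LTBB OVX and sham and 5 between STBB OVX and sham. Of all 14217 genes, 8196, 8137 and 8154 passed with the block, in that order. Lmod1 then passed against sham in LTBB OVX (limma adjusted p = 0.0291) and in STBB OVX (adjusted p = 0.0127), Tagln passed in STBB OVX (adjusted p = 0.0496) and Actg2 did not (adjusted p = 0.0698). No other call of a member changed. The correlation of deviations between same-numbered pools exceeded 0.1 in 6 of 18 pairs, all 3 of sham with LTBB OVX and all 3 of sham with STBB OVX, and ran from -0.1873 to -0.0456 between sham and OVX. Among differently numbered pools it exceeded 0.1 in 8 of 36 pairs and reached 0.3813. The causes of these changes were not tested. Fits that leave out a pool also hold fewer pools, and that part was not separated.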
